A study of Mus musculus with 10 samples.

Results

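The liver transcriptome described here is that of 5 wild-type mice, taken as the 5 arrays labelled Scd1 +/+ of the 10 arrays in the series. Each array held liver RNA from 1 wild-type C57BL/6J female aged 6 weeks, kept on chow, not fasted and with no genetic modification, so the replicates are animals (WT 1 to WT 5). The series as a whole set Scd1-null livers against wild-type livers, and the wild-type group is described on its own. RNA was hybridised to the Affymetrix mouse genome U74A GeneChip, a 1-colour array on which a group of short oligonucleotide probes (a probe set) reports 1 intensity for a transcript. Control probe sets were left out, and 8724 probe sets with a single gene symbol gave 7417 genes, each represented by its brightest probe set.

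The liver is built mainly of hepatocytes, which make most plasma proteins, store and release glucose, burn and export fat, turn ammonia into urea and clear drugs and hormones. These tasks are divided along the blood flow of the lobule. Hepatocytes near the portal vein favour urea and glucose production, and those near the central vein favour drug metabolism and glutamine synthesis. Kupffer cells (the resident macrophages), sinusoidal endothelium, stellate cells, bile duct cells and blood share the tissue.

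The 5 arrays were of 1 chip lot, and their deposited intensities had medians between 786 and 845. Arrays were brought to a common distribution (quantile normalization) before genes were ranked, and values below the 25th percentile, an intensity of 350.4, were raised to it before logarithms were taken. Correlations between pairs of normalized arrays lay between 0.959 and 0.985 on the linear scale, over all probe sets with 1 symbol. On the log2 scale over the bright genes they lay between 0.898 and 0.954. The recorded hybridisation times put WT 1, WT 2 and WT 3 before a gap of 93 minutes and WT 4 and WT 5 after it. These 2 sets are called the earlier and the later fluidics run here, a division inferred from the times. For WT 3 the files carry a remark on evaporation and an uncertain amount of cRNA. WT 4 stood apart from the others: the first principal component of the bright genes carried 41.2% of the variance and separated WT 4 from the other 4 arrays. The second carried 24.8% and had WT 5 and WT 1 at its opposite ends.

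Brightness ranks the signal of probe sets and is no measure of mRNA abundance across genes, since probes bind their targets with different strength. Of the bright genes, 302 were read by several probe sets, and the brightest exceeded the dimmest by a median of 5.54-fold (quartiles 2.47 and 9.49). The dimmest probe set lay at or below the floor for 69 of the 302 genes. The widest gap was at Scd1, the stearoyl-CoA desaturase whose gene is mutated in the other mice of the series. Its probe sets averaged 16436, 14000 and 328, the last of these below the floor. Rps28, a protein of the small ribosomal subunit, averaged 22510, 15247 and 583 on its 3 probe sets. Family-shared probe sets, marked by the manufacturer as matching several related genes, made up 14.0% of the 100 brightest genes and 3.87% of all genes measured.

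The 2 brightest genes were Ahsg, which encodes fetuin-A, a plasma protein that keeps calcium phosphate in solution, and Alb, which encodes albumin. Ahsg had deposited intensities of 25581, 30911, 29782, 27767 and 29640 in WT 1 to WT 5 (28736 ± 2094, SD, n = 5). Alb had 25073, 29931, 29167, 27673 and 29419 (28253 ± 1966, SD, n = 5). Both were lowest in WT 1 and highest in WT 2 as deposited, and Ahsg and Alb held the first and second place on every array. After quantile normalization their spread is 0 by construction. Ambp, the precursor of the plasma proteins alpha-1-microglobulin and bikunin, came next with deposited values of 23568, 24730, 22772, 24870 and 26259.

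**Figure D1:**
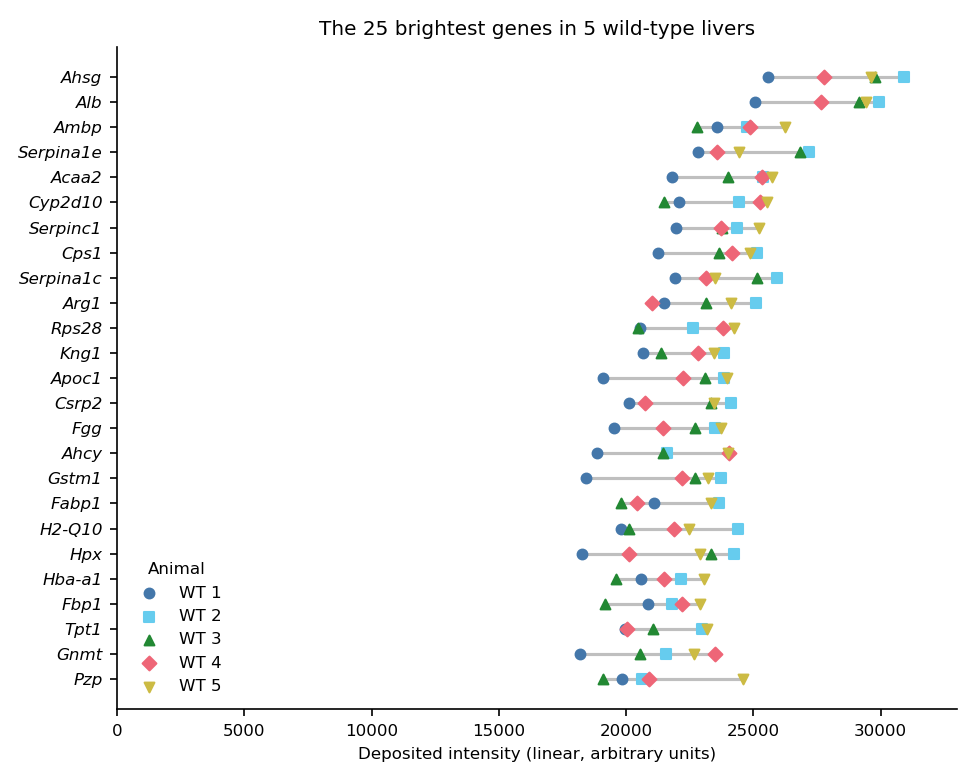
Deposited intensity (linear scale, horizontal axis) of the 25 brightest genes in each of the 5 wild-type livers, ordered by mean normalized intensity with the brightest at the top. Each symbol is 1 animal and each grey line spans the lowest to the highest; in every animal Ahsg and Alb lie to the right of all the other genes.

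The 25 brightest genes covered nearly every main task of the hepatocyte. Plasma proteins among them were Ahsg, Alb, Ambp, the alpha-1-antitrypsins Serpina1e and Serpina1c, antithrombin (Serpinc1), kininogen (Kng1), fibrinogen gamma (Fgg), hemopexin (Hpx), the protease inhibitor Pzp and the apolipoprotein gene Apoc1. Metabolic enzymes were Acaa2 (mitochondrial fat oxidation), Cps1 and Arg1 (urea cycle), Ahcy and Gnmt (methionine cycle), Fbp1 (glucose production), Gstm1 (glutathione conjugation) and Cyp2d10 (drug oxidation). Fabp1 carries fatty acids in the cytosol, and H2-Q10 encodes a class I histocompatibility molecule that mouse liver secretes. The remaining genes were Rps28, Tpt1 (a growth-related protein whose translation is regulated), Csrp2 (a LIM domain protein) and Hba-a1, the alpha-globin of red blood cells. Their mean normalized intensities ran from 28736 at Ahsg to 21198 at Pzp.

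The top of the scale was compressed. The 100 brightest genes ended at Nfil3, a transcription factor of the clock and immune systems, with a mean of 13887, and Lcat, the enzyme that esterifies plasma cholesterol, came next with 13818. The brightest gene was thus 2.07 times as bright as the 100th. The 100 brightest genes held 13.6% of the summed intensity of all genes measured, and the brightest decile (741 genes) held 45.5%.

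Of the 100 brightest genes, 79 were on at least 1 of the lists of functions or cell types used here and 21 on none. Secreted plasma proteins formed the leading group, with 33 of 103 measured members among the 100 brightest, against 1.35% of all genes measured. In the brightest decile stood 73 of these 103 genes (70.9%), against 9.99% of all genes. The median member had an intensity of 9985, against 935 over all genes measured. Coagulation factors and inhibitors, a subset, had 7 of 21 members among the 100 brightest, and apolipoproteins 4 of 12. Complement was dimmer, with 2 of 14, namely C8g, a subunit of the lytic complex (17939), and Serping1, the inhibitor of the first component (14151).

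**Figure D2:**
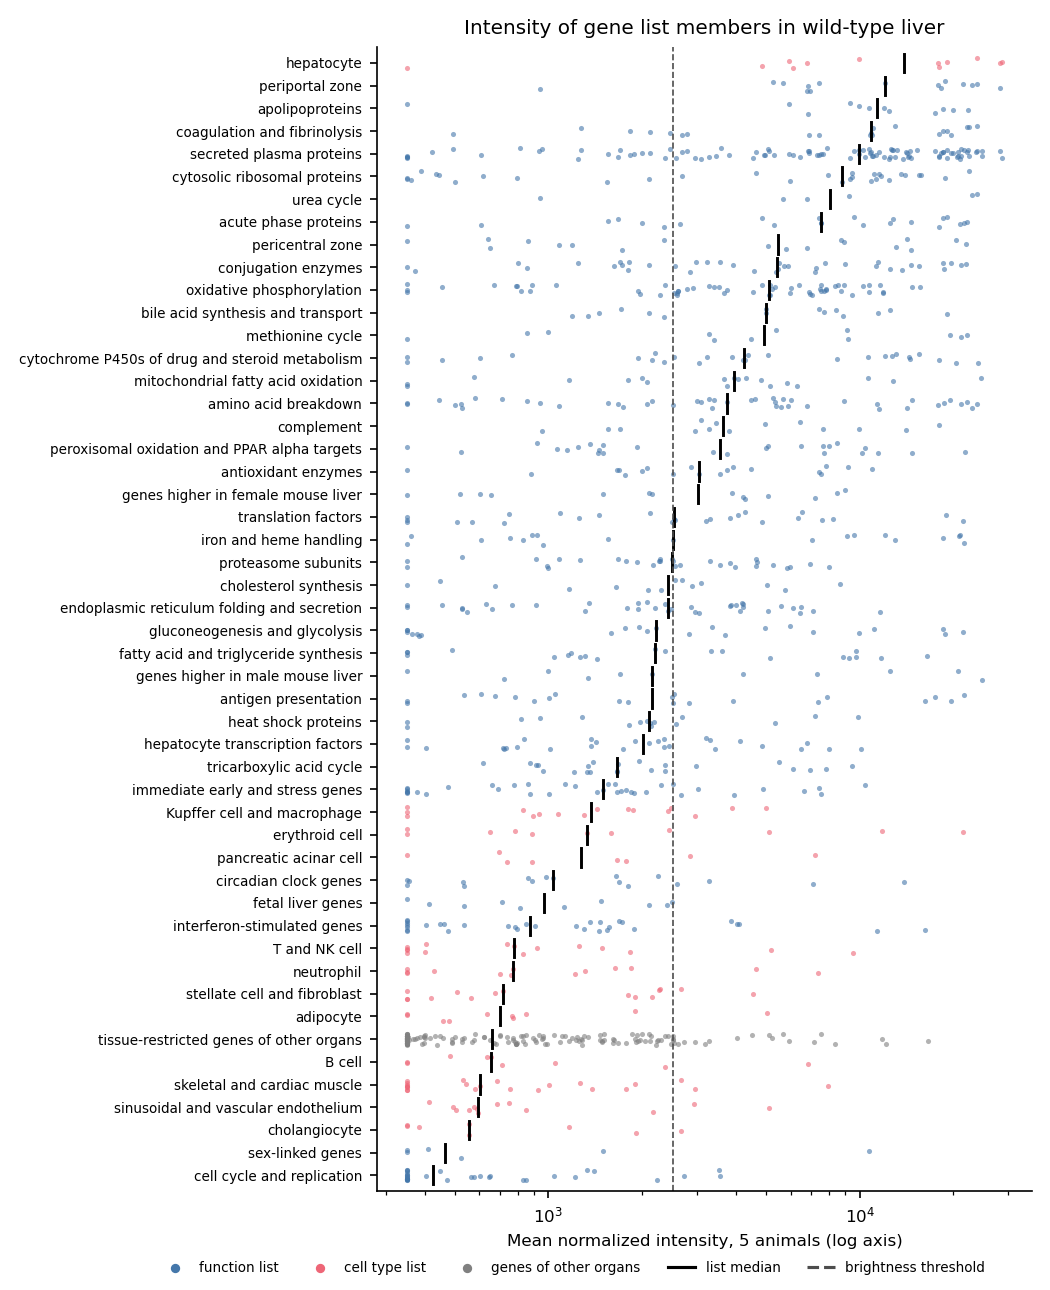
Mean normalized intensity over the 5 wild-type livers (horizontal log axis) of every measured member of each gene list, with lists ordered by their median (black bar) and means under the floor drawn at it. Blue points are function lists, red points are cell type lists and grey points are genes of other organs, whose 90th percentile (2516) is the dashed brightness threshold; hepatocyte, periportal and plasma protein lists lie mostly to its right, and markers of other cell types mostly to its left.

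The 3 fibrinogen chains, which assemble into 1 clotting protein, all stood among the 100 brightest genes and are neighbours on chromosome 3. Fgg averaged 22086, Fga 19037 and Fgb 17974. Other neighbouring groups among the 100 brightest, defined as protein-coding genes at most 3 genes apart, were Apoc4, Apoc1 and Apoe on chromosome 7, Gstm3 and Gstm1 on chromosome 3, Rps18 and H2-K1 on chromosome 17, and Serpina6 with Serpina1b, Serpina1c and Serpina1e on chromosome 12. These 5 groups held 14 of the 98 genes that could be placed on the annotation.

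Serpina1b, Serpina1c and Serpina1e are mouse copies of the gene for alpha-1-antitrypsin, the main plasma inhibitor of neutrophil elastase. Serpina1e had normalized intensities of 25414, 25414, 26225, 23260 and 23260 in WT 1 to WT 5, Serpina1c had 24097, 24461, 25023, 22650 and 22417, and Serpina1b had 19117, 21212, 22586, 20714 and 19681. All 3 genes were highest in WT 3. The probe sets of Serpina1e and Serpina1b are family-shared, so the signals of the copies cannot be told apart with certainty. Their promoters are shown because the copies share them nearly letter for letter, beside those of 4 other bright genes for contrast. The sequences are the 120 bases before the annotated start on the gene's own strand (RefSeq, GRCm38.p6), 5′ to 3′. Capitals mark GTTAAT, a half-site of the motif bound by the liver factor HNF1, or TATAAA, the TATA motif.
Serpina1e, chr12:103956898-103957017, minus strand: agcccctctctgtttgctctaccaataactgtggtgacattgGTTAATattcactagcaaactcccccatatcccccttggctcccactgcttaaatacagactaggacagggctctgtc
Serpina1c, chr12:103904951-103905070, minus strand: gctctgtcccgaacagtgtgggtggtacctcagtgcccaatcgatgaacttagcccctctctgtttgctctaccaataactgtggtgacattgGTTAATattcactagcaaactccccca
Serpina1b, chr12:103738190-103738309, minus strand: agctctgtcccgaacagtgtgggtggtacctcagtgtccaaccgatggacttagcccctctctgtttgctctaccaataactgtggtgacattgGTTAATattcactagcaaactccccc
Alb, chr5:90460750-90460869, plus strand: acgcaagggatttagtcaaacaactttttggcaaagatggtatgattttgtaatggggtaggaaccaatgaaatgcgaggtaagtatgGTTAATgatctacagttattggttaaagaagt
Fabp1, chr6:71199759-71199878, plus strand: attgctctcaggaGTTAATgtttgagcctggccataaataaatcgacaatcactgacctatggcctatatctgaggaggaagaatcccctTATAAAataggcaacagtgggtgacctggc
H2-Q10, chr17:35469969-35470088, plus strand: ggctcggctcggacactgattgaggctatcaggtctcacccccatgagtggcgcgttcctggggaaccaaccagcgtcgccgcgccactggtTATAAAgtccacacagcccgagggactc
Rps28, chr17:33824563-33824682, minus strand: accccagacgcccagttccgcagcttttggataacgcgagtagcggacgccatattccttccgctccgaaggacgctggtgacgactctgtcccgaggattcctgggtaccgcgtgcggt
Aligned over their overlap, the Serpina1e and Serpina1c windows were identical at 69 of 69 bases with an offset of 51 bases, and Serpina1c and Serpina1b at 116 of 119 bases. Serpina1e and Serpina1b were identical at 68 of 68 bases. Each of the 3 holds GTTAAT in the same surrounding sequence.

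Across the 100 brightest genes, 79 had a promoter in the RefSeq table, and short motifs were counted in the 250 bases before the start on both strands, except TATAAA, which was counted on the gene's strand in the last 50 bases. GTTAAT or its reverse complement was present in 17.7% of these 79 promoters, against 5.80% of the 5916 promoters of all genes measured. Among the 26 secreted plasma proteins of the 100 brightest it was present in 34.6%, and among the 53 other genes in 9.43%. TTGCNNAA, a loose form of the motif of the C/EBP factors, was present in 38.5% of the 26 plasma protein promoters and in 10.5% of all. TGTTTGC, one spelling of the forkhead motif of the FOXA factors, was present in 23.1% of the 26 and in 4.51% of all. The nuclear receptor motif CAAAGTCC was in 0 of the 26 and in 1.72% of all promoters. The 3 Serpina1 copies enter these shares 3 times. With the copies counted once, an alternative chosen after seeing the data, the shares over 24 plasma protein promoters were 29.2% for GTTAAT, 37.5% for TTGCNNAA and 16.7% for TGTTTGC. These matches are letters in a window and do not show that a factor binds there.

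The promoters of the 100 brightest genes had a median ratio of observed to expected CpG of 0.305, against 0.665 over all genes measured, and GGGCGG, the motif of the SP1 family, was present in 31.6% against 58.1%. Genes restricted to other organs had a CpG ratio of 0.279 and GGGCGG in 24.8% of their promoters, so low values were not particular to the brightest genes. TATAAA was present in 12.7% of the promoters of the 100 brightest genes and in 4.33% of all. In the genes restricted to other organs, which are mostly dim in liver, TATAAA was in 21.2% of the promoters and GTTAAT in 7.30%. The 26 promoters of cytosolic ribosomal protein genes held neither TATAAA nor GTTAAT, and their median CpG ratio was 0.878.

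**Figure D3:**
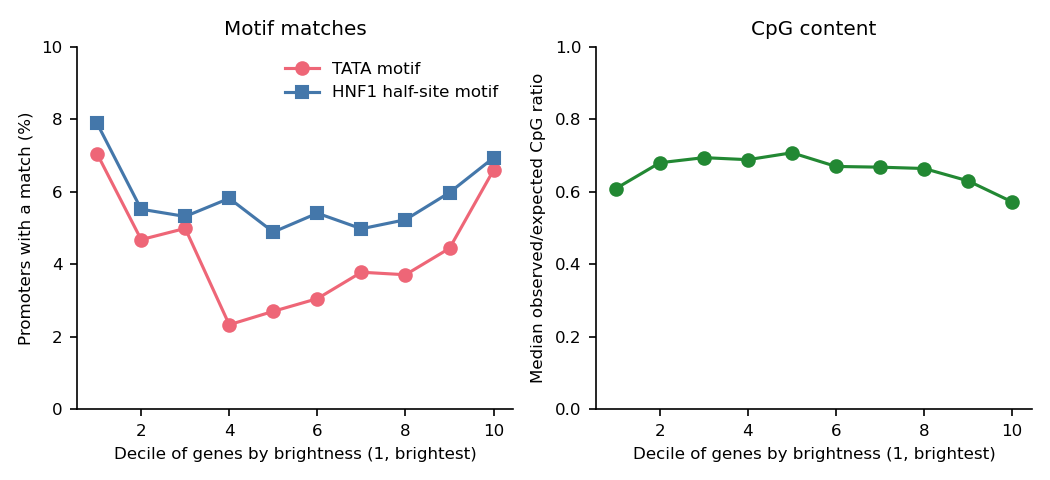
Share of promoters with a TATA motif or an HNF1 half-site motif (left, percent) and median observed to expected CpG ratio (right), for deciles of all measured genes from the brightest (1) to the dimmest (10) in wild-type liver. Both motifs are most frequent in the brightest decile (7.05% and 7.89%) and rise again in the dimmest (6.60% and 6.94%), and the CpG ratio is lowest at both ends.

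Enzymes of amino acid breakdown had 9 of 45 measured members among the 100 brightest and 22 in the brightest decile. They were led by Cps1, which makes carbamoyl phosphate from ammonia, and Arg1, which releases urea. Cps1 had normalized intensities of 23436, 24000, 23948, 24097 and 23662 in WT 1 to WT 5. Arg1 had 23538, 23948, 23345, 20905 and 22998, with WT 4 lowest. Of the 6 urea cycle genes measured, 5 were in the brightest decile. The exception was Ass1, argininosuccinate synthase, at 941. The methionine cycle, which supplies methyl groups, had 7 of 12 members in the brightest decile, with Ahcy at 22083, Gnmt at 21252 and Bhmt, the betaine-dependent methyltransferase, at 19552.

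Drug and steroid metabolism was the other large group. Of 28 measured cytochrome P450 genes, 15 were in the brightest decile and 6 among the 100 brightest, led by Cyp2d10 (24036), Cyp3a11 (20449) and Cyp2d26 (18017). Conjugation enzymes, which attach glutathione, glucuronic acid, sulfate or methyl groups, had 21 of 38 members in the brightest decile. Gstm1, a glutathione transferase, averaged 21921, and Mgst1, its membrane-bound relative, averaged 19661. Close relatives in these families share probes, and the probe sets of Gstm1 and Gstm3 are family-shared.

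Fuel metabolism was bright at selected steps. In glucose metabolism 8 of 23 genes were in the brightest decile, with the glucose-releasing enzymes Fbp1 (21442) and G6pc (18843) at the head. Mitochondrial fat oxidation had 8 of 19 members there, led by Acaa2 (24588), the thiolase of the last step. Acaa2 had normalized intensities of 23948, 24097, 24461, 25414 and 25023 in WT 1 to WT 5, with an SD on the log2 scale of 0.04 after quantile normalization and of 0.09 after scaling to a common 75th percentile. Peroxisomal oxidation and PPAR alpha targets had 12 of 26, led by Fabp1 (21754) and the peroxisomal thiolase Acaa1b (14708). Fatty acid and triglyceride synthesis had 7 of 21 and cholesterol synthesis 3 of 14. The brightest cholesterol gene was Fdps, farnesyl diphosphate synthase, at 8678.

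Scd1, which puts the first double bond into saturated fatty acids, was the only gene of fatty acid and triglyceride synthesis among the 100 brightest, at rank 65. Its brightest probe set read 19221, 17502, 17416, 12259 and 15780 in WT 1 to WT 5, and WT 4 was lowest. A second Scd1 probe set read 17262, 26225, 12224, 5154 and 9134 in the same order. Both were lowest in WT 4, but the second ranged over 5-fold and had an SD of 0.89 on the log2 scale, against 0.25 for the first. Elovl5, a fatty acid elongase, averaged 11713, and Srebf1, the transcription factor that drives lipogenic genes, averaged 9736.

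Among lists of general cell machinery, oxidative phosphorylation had 32 of 59 measured genes in the brightest decile but 2 among the 100 brightest, Uqcrq of complex III (15664) and Cox6a1 of complex IV (14704). Cytosolic ribosomal proteins had 19 of 31 in the brightest decile and 5 among the 100 brightest. The tricarboxylic acid cycle had 5 of 23 in the brightest decile, 3 of them the succinate dehydrogenase subunits Sdhb, Sdhc and Sdhd. Proteasome subunits had 8 of 31 and the folding machinery of the endoplasmic reticulum 11 of 37, led by the chaperone Hspa5 (11603). Iron and heme handling had 4 genes among the 100 brightest, which were Hpx, the hemoglobin binder Hp, ferritin heavy chain Fth1 and Hamp, the iron hormone hepcidin.

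Transcription factors of hepatocytes had 5 of 28 in the brightest decile, led by Cebpa (10121), Ppara (7998) and Nr1i3 (6763). Hnf4a, a master regulator of hepatocyte identity, averaged 4872. Among circadian genes Nfil3 (13887) and Noct (7080) were in the brightest decile, both through family-shared probe sets, and their other probe sets averaged 972 and 2571. In the same list, Nr1d1, a repressor of the clock, averaged 3279. Cell cycle and replication genes had 0 of 34 in the brightest decile, against 9.99% of all genes. Of these 34, 12 were at the floor on all 5 arrays, against 14.5% of all genes. Fetal liver genes had 0 of 10 in the brightest decile, a count too small to set apart from the 9.99% of all genes. Afp, the fetal counterpart of albumin, had 883, 760, 853, 840 and 715, well below the brightness threshold in every animal.

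The liver label was borne out by its markers. Of 12 measured hepatocyte markers, 11 were in the brightest decile and 6 among the 100 brightest. The exception was Apoa2, an abundant apolipoprotein of high-density lipoprotein, whose only probe set read 236, 295, 259, 308 and 152 and so lay at the floor on every array. Genes of the periportal zone had 14 of 15 members in the brightest decile and those of the pericentral zone 10 of 18. Glul, glutamine synthetase of the last layer of cells around the central vein, averaged 1079. Cyp2e1, the ethanol-inducible P450, had 872, 1807, 2240, 3374 and 3488 in WT 1 to WT 5, a range of 4.00-fold with WT 1 lowest. Its mean of 2356, like that of Glul, lay below the brightness threshold, so it is not among the bright genes whose spread is described below.

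Sex markers matched the labels. Xist, the RNA that silences an X chromosome in females, had normalized intensities of 10103, 11248, 11310, 10469 and 10434. Of the Y-linked genes, Uty and Eif2s3y lay at the floor on all 5 arrays, Kdm5d averaged 410 and Sry 525. Uba1y averaged 1502, above the median of all genes measured (935) and below the brightness threshold.

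A gene was called bright when its mean exceeded the 90th percentile of 182 genes restricted to other organs, an intensity of 2516. By this rule 1445 of 7417 genes (19.5%) were bright. The genes of other organs were not all dim: 19 of 182 passed by construction of the threshold, and 11 stood in the brightest decile. Th, the enzyme of dopamine synthesis in neurons and adrenal gland, had 15247, 18091, 18924, 14123 and 16398 and ranked 63rd. The signals of Sprr1b, a protein of skin (12117), and Sct, the gut hormone secretin (11808), were also far above the threshold. Sprr1b had a second probe set that averaged 33.9, below the floor.

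Markers of other cell types were mostly dim, as were the genes measured as a whole, of which 19.5% were bright. The counts per cell type are too small to set apart from that share. In bulk tissue fewer cells of a type and less RNA per cell cannot be told apart. Of 16 Kupffer cell and macrophage genes, 3 were bright, namely the Kupffer cell receptor Clec4f (4990), Laptm5 (3902) and the complement gene C1qc (2958). Endothelium had 2 bright genes of 13 (Eng and Kdr), stellate cells and fibroblasts 2 of 15 (Timp1 and Des) and bile duct cells 1 of 8 (Slc4a2). T and NK cells had 2 of 15, B cells 1 of 9 and neutrophils 2 of 13. The T cell kinase Zap70 averaged 9542 and the T cell coreceptor Cd4 averaged 5177, while the median of the T and NK list was 778. The B cell antigen Ms4a1 averaged 6813 and the median of the B cell list was 653. Other probe sets of these genes were dimmer: those of Zap70 averaged 1400 and 2280, that of Ms4a1 averaged 311, below the floor, and those of the neutrophil receptor Csf3r (7331) averaged 1304 and 2199. Red blood cell genes had 3 of 11 bright, Hba-a1 (21496), Hbb-b2 (11819) and the transcription factor Klf1 (5118). Prss2, a pancreatic trypsinogen, had 7114, 10129, 6708, 7226 and 4728.

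The animals differed little for most bright genes. Over the 1445 bright genes, the SD of log2 intensity between the 5 animals had a median of 0.15 and a 95th percentile of 0.37, and the median coefficient of variation was 10.2%. The median ratio of the highest to the lowest animal was 1.29, and it reached 2 or more for 61 genes (4.22%). The SD was at least 0.5 for 33 genes (2.28%). These SDs hold the differences between animals and the error of the array together, since no RNA was hybridised more than once. Leaving out WT 4 lowered the number with an SD of at least 0.5 to 19.

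**Figure D4:**
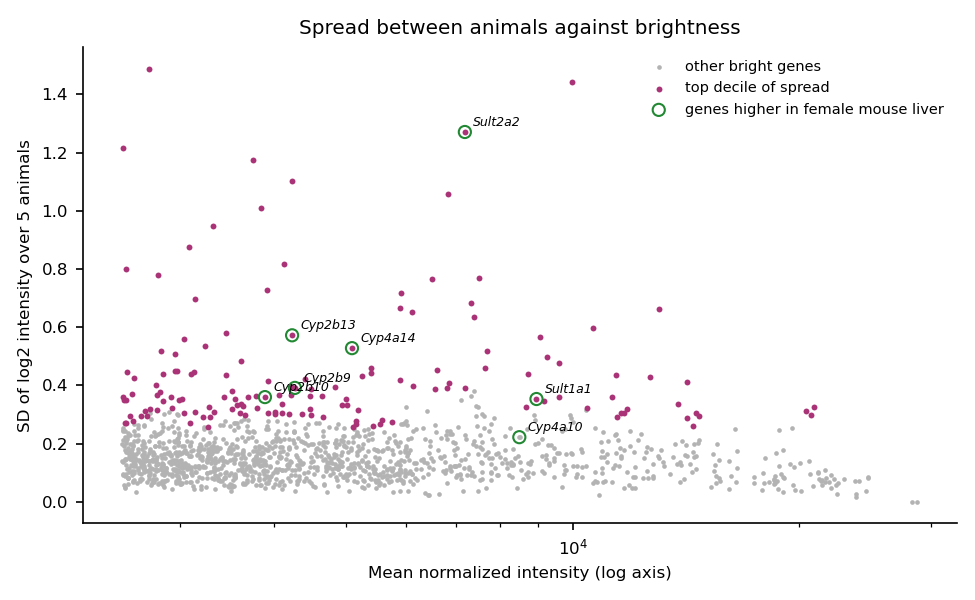
SD of log2 normalized intensity over the 5 wild-type livers (vertical axis) against mean normalized intensity (horizontal log axis) for the 1445 bright genes. Purple points are the 150 genes in the top decile of spread for their brightness, and green rings are the 7 bright genes known to be higher in female mouse liver, of which 6 are purple.

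After quantile normalization the smallest SDs of bright genes, apart from Ahsg and Alb, were those of Cps1, the adiponectin receptor gene Adipor2 and Serpind1, which encodes the thrombin inhibitor heparin cofactor II. Adipor2 had normalized intensities of 6415, 6540, 6287, 6487 and 6402 in WT 1 to WT 5. Serpind1 had 10513, 10871, 10938, 10895 and 10953. This order depended on the scaling: after scaling to a common 75th percentile the SD was 0.10 for Cps1, against 0.02 after quantile normalization, 0.07 for Adipor2, against 0.02, and 0.10 for Serpind1, against 0.02. Of the 1445 bright genes, 150 (10.4%) were in the top decile of spread for their brightness, and 0 of 16 coagulation genes, a count too small to set apart from that share.

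The 15 genes of largest spread included 2 apolipoproteins. Apoa1, the main protein of high-density lipoprotein, had 1337 in WT 1 and 15311, 13137, 8497 and 11578 in WT 2 to WT 5 (SD 1.44 on the log2 scale). Apoa4, an apolipoprotein of chylomicrons that rises with fat absorption, had 2083, 10680, 3378, 10776 and 7226 (SD 1.06). Both were lowest in WT 1, by a wide margin for Apoa1. Apob, the structural protein of very low-density lipoprotein, followed another order with 6133, 8275, 5902, 2315 and 6945, lowest in WT 4. The other 8 bright apolipoprotein genes were not in the top decile of spread.

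**Figure D5:**
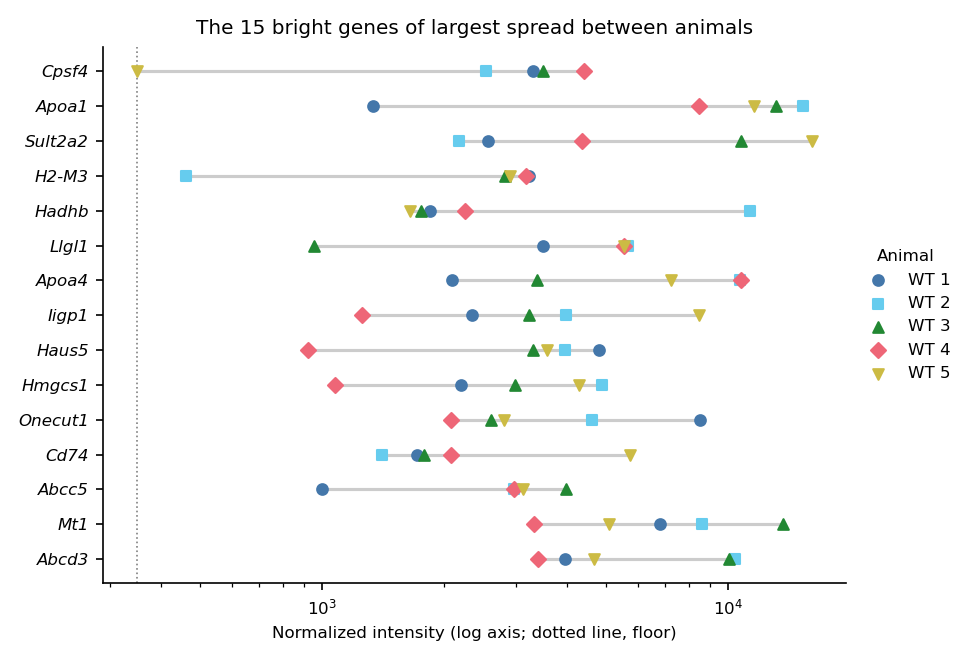
Normalized intensity (horizontal log axis) in each of the 5 wild-type livers of the 15 bright genes with the largest SD of log2 intensity, largest at the top. Each symbol is 1 animal and the dotted line is the floor; for Cpsf4, Apoa1, H2-M3, Hadhb, Haus5 and Cd74 a single animal lies far from the other 4, while Sult2a2, Apoa4 and Mt1 are spread over the whole range.

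Several of these genes owed their spread to a single animal. Cpsf4, which encodes a factor of mRNA 3′ end processing, had 3309, 2533, 3502 and 4409 in WT 1 to WT 4 and a value below 0 in WT 5. Hadhb, the beta subunit of the mitochondrial trifunctional protein, had 11297 in WT 2 and 1644 to 2248 in the other 4 animals. H2-M3, a class I molecule that presents formylated peptides, had 461 in WT 2 and 2825 to 3232 in the others. The other H2-M3 probe set had 1039, 992, 985, 885 and 925 in WT 1 to WT 5, with no drop in WT 2. No second probe set of 1 symbol was available to check Cpsf4, Hadhb or Apoa1, and whether these values are errors of single arrays was not tested.

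Others varied more gradually. Mt1, a metallothionein that binds zinc and is induced by stress hormones and zinc, had 6804, 8639, 13616, 3321 and 5101 in WT 1 to WT 5, whereas its relative Mt2 had 5743, 7720, 7617, 7410 and 8439. The order of the animals differed between the 2 genes, and WT 3 was highest for Mt1 but not for Mt2. Alas1, the rate-limiting enzyme of heme synthesis, had 17733, 16347, 6454, 16118 and 8401, low in WT 3 and WT 5. Onecut1, a transcription factor of liver development, had 8536, 4615, 2599, 2071 and 2805. Hmgcs1, an early enzyme of cholesterol synthesis, had 2204, 4892, 2977, 1073 and 4290, and Fdps, of the same pathway, had 7735, 11388, 10040, 6492 and 7735. Both cholesterol genes were highest in WT 2 and lowest in WT 4. Of the 7 bright genes of cholesterol synthesis, 4 were highest in WT 2, against 16.1% of all bright genes. In WT 4, 3 of the 7 were lowest, against 26.6% of all bright genes, and 2 were highest. Tm7sf2, another gene of the list, was highest in WT 4 (6874, against 4992 to 5917 in the others).

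Genes known to be higher in female than in male mouse liver differed widely among these 5 females. Of the 7 bright members of that list, 6 lay in the top decile of spread for their brightness, against 10.4% of all bright genes, and their median SD was 0.39, against 0.15 over all bright genes. Sult2a2, a sulfotransferase of bile acids and steroids, had 2557, 2169, 10735, 4355 and 16118 in WT 1 to WT 5. The P450 genes Cyp2b13, Cyp2b9 and Cyp2b10 had 2253, 3091 and 2753 in WT 1, the lowest of the 5 animals for each. In the other 4 animals Cyp2b13 ranged from 3332 to 5911, Cyp2b9 from 3576 to 6328 and Cyp2b10 from 3434 to 5306. These 3 genes are close relatives whose probes may share targets. Sult1a1, a phenol sulfotransferase, was likewise lowest in WT 1, with 5936, 8384, 9150, 9864 and 11416. Cyp4a14, a fatty acid hydroxylase, went the other way and was highest in WT 1, with 7916, 2845, 4618, 4744 and 5306. The count was 6 without WT 4, 6 without WT 3, 4 without WT 1 and 4 without WT 2. With brightness set at the 95th percentile of genes of other organs, 3 of the list were bright and 1 of them was in the top decile.

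Of 5 bright members on the list of genes higher in male mouse liver, 3 were in the top decile of spread, against 10.4% of all bright genes. Igfbp2, a binding protein of insulin-like growth factors, had 5738, 3561, 6114, 12650 and 8536. Mup3, a major urinary protein that carries pheromones, had 21482, 21981, 24097, 14262 and 21845. WT 4 was the highest animal for Igfbp2 and the lowest for Mup3. The probe set of Mup3 is shared across a large family of near-identical genes.

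Several macrophage, class II and interferon-induced genes were highest in WT 5. C1qc had 5182 in WT 5 and 2203 to 2695 in the other animals. Cd74, the invariant chain of class II histocompatibility molecules, had 5732 in WT 5 and 1402 to 2075 in the others, and H2-Aa, a class II chain, had 5004 and 2062 to 2492. Iigp1, an interferon-induced GTPase, had 8455 in WT 5 and 1257 to 3984 in the others, and its second probe set was also highest in WT 5 (6338, against 1543 to 3508). Ly6e, an interferon-induced surface protein, had 17502 in WT 5 and 8016 to 12273 in the others on a family-shared probe set. Its second, dimmer probe set had 811 in WT 5 and 659 to 778 in the others. Over all 1445 bright genes WT 5 was the highest animal for 15.7%. All 3 bright Kupffer cell and macrophage genes were highest in WT 5. The summed intensity of the 16 genes of that list was 36879 in WT 5 and 24599 to 25838 in the others, and Marco, a scavenger receptor of macrophages, was at the floor on all arrays. The summed intensity of 32 interferon-stimulated genes was 81873 in WT 5 and 53311 to 62979 in the others. Of the 11 bright complement genes, 7 were highest in WT 5, among them Cfi (11359, against 4796 to 8163 in the others). Other immune genes did not share this: Ifi27, an interferon-induced gene, was highest in WT 2 (4768, against 4103 in WT 5), and H2-Q10 was lowest in WT 5. Of the 10 bright antigen presentation genes, 5 were highest and 2 lowest in WT 5. The summed intensity was 24391 in WT 5 and 23382 to 26410 in the others for T and NK cell genes. For B cell genes it was 13654 and 12983 to 13551, and for neutrophil genes 20934 and 20894 to 22295. The part of macrophage RNA in these differences was not tested.

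WT 4 was the animal farthest from the median for 517 bright genes (35.8%) and for 76 of the 150 genes in the top decile of spread (50.7%). In that top decile WT 4 was the lowest animal for 64 genes and the highest for 37. Low values in WT 4 were seen for Slc25a20, the mitochondrial acylcarnitine carrier, which had 5090 in WT 4 and 9010 to 13753 in the others. Tdo2, the first enzyme of tryptophan breakdown, had 8439 in WT 4 and 13907 to 16947 in the others. Otc, the urea cycle enzyme ornithine transcarbamylase, had 4337 and 6037 to 8761. These were single genes of their lists. Of 12 bright genes of mitochondrial fat oxidation, 6 were highest and 3 lowest in WT 4. Of 28 bright genes of amino acid breakdown, 9 were highest and 6 lowest in WT 4. For the urea cycle the counts were 1 and 3 of 5. High values in WT 4 were seen for respiratory chain genes: it was the highest animal for 22 of 44 bright genes of oxidative phosphorylation, whereas WT 3 was the lowest for 22. This was not particular to the respiratory chain. WT 4 was highest for 10 and lowest for 3 of 20 bright cytosolic ribosomal protein genes. For bright proteasome genes it was highest for 8 and lowest for 3 of 15. Over all 1445 bright genes, WT 4 was highest for 395 and lowest for 384, and WT 3 was lowest for 248.

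Several folding genes of the endoplasmic reticulum were high in WT 1 and WT 4. Hspa5, the main chaperone of that compartment, had 15708, 9150, 10040, 12459 and 10657 in WT 1 to WT 5. Herpud1, which serves the disposal of misfolded proteins, had 7308, 4049, 3388, 10412 and 5426, and Pdia4, a disulfide isomerase, had 8849, 5460, 6079, 9180 and 5978. For all 3 genes WT 1 and WT 4 were the 2 highest animals. For Xbp1, a transcription factor of the unfolded protein response (6210, 5878, 5668, 8183 and 6368), and Dnajb9, a cochaperone (3119, 2695, 1738, 4028 and 3206), WT 4 was highest and WT 5 exceeded WT 1. Of the 17 bright genes of the list, 8 were highest in WT 1 and 7 in WT 4, against 17.2% and 27.3% of all bright genes. The summed intensity of its 37 genes was 125688 in WT 1 and 125408 in WT 4, against 99385 to 103610 in the others.

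The later and the earlier fluidics run were compared with limma over 6905 probe sets, 2 arrays against 3. No probe set was called in either direction at a Benjamini-Hochberg adjusted p under 0.05 (0% higher and 0% lower). Of the 6905, 644 had an unadjusted p under 0.05 by limma. Probe sets read on the same arrays vary together, so this number cannot be set against a fixed share given by chance. A comparison of 2 arrays with 3 can miss real differences, so the lack of calls does not show that the runs were alike. The smallest adjusted p by limma was 0.429. Hp, which encodes the hemoglobin-binding acute phase protein haptoglobin, had 26225 and 25414 in the later run (WT 4 and WT 5) and 20145, 15780 and 17262 in the earlier run. For Hp the difference was 0.55 ± 0.12 on the log2 scale (later minus earlier, SE), and the adjusted p by limma was 0.429. Hp was among the 644 probe sets with an unadjusted p under 0.05 and was not called. Without WT 4 the later run was WT 5 alone, assumed to vary like the 3 earlier arrays, which then gave the whole estimate of spread. On that footing limma called 5 probe sets higher and 2 lower, with a smallest adjusted p of 0.00213. The 5 were those of Dda1, Macroh2a1, Masp2, Cd74 and Gosr2 and the 2 those of Cpsf4 and Man2b1, named here because the count is small. Dda1 had 7249 in WT 5 and 240 to 575 in the other animals. These calls set 1 animal against 3 and do not compare the runs.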

How the data were processed

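Liver RNA of 5 wild-type mice was measured on mouse genome U74A arrays. The deposited table holds intensity on a linear scale as whole numbers, 1.18% of them below 0. How the authors summarised probe pairs, and whether they scaled these intensity values, is not stated in the labels or headers. The first version of this array was later replaced because some probe sets were designed to the wrong strand, and the sources used here do not say which ones. The other deposited files hold hybridisation settings, which gave chip lot and hybridisation time. Fluidics runs were inferred from these times (a new run after a gap of over 60 minutes). Without the 66 control probe sets, 9977 remained. Trimmed means (2% per end) of the 5 arrays differed by 13.3%, above a tolerance of 1%, so the arrays were quantile normalized over the 5 arrays alone. Values were floored at the 25th percentile (350.4) before log2.

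The platform annotation gave the names of probe sets: 8724 had 1 symbol, 346 several and 907 none, and those with several or none were not used. Of the 8724, 8710 matched the RefSeq gene table (GRCm38.p6) by gene ID, and 0 symbols changed. A gene stood at its brightest probe set by mean intensity. The top decile of spread was taken within each decile of bright genes by brightness. The comparison of the runs used limma 3.58.1 (R 4.3.3, eBayes with trend, two-sided) over probe sets above the floor on at least 2 arrays. The limma and spread steps were tested on simulated data. Counting depth has no meaning for arrays, and 5 arrays set the precision.

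Genes named are the 25 brightest, up to 3 of the brightest per function list and 2 per cell type list, the 15 of largest and 5 of smallest SD among bright genes, up to 3 members per list in the top decile of spread, the genes whose probe sets differ most, Scd1, Xist and Y-linked genes. Others named for their place in a list, such as dim exceptions, were chosen after their values were seen. The gene lists and this choice of genes were made with earlier results of these data known. Alternatives were other scalings, other ways to represent a gene, other floors and thresholds, and leaving out arrays. Other scalings of the single-animal gaps and promoter shares with the Serpina1 copies counted once were chosen after seeing the data. Python 3.11.15, pandas 2.3.3 and numpy 2.4.6 were used.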

Additional observations from a re-analysis of the deposited data

Results flagged for a closer look

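Among 163 named bright genes, 23 had 1 animal whose gap to the nearest of the others exceeded 0.71 of the whole range on the log2 scale, Dixon's 95% critical value for 5 samples. Chance gives about 5% of groups, and over all 1445 bright genes 88 (6.09%) passed. The named genes were partly chosen for a large spread, which raises their number. After quantile normalization the animal that stood apart was WT 4 for 9 of the 23 genes, WT 5 for 5, WT 1 for 4, WT 3 for 3 and WT 2 for 2. For the 88 genes that passed among all bright genes, it was WT 4 for 45, WT 3 for 12, WT 1 for 11, WT 5 for 11 and WT 2 for 9. All values are normalized intensities. The gaps depended on the scaling, as alternatives chosen after seeing the data showed: of the 23 genes, 8 passed on values as deposited, 14 after scaling to a common 75th percentile and 15 after scaling to a common trimmed mean. Under all 3 of these passed Abcc5, Apoa1, C1qc, Cpsf4, H2-Aa, H2-M3, Hadhb and Haus5. Under none of them passed C8g, Csf3r, Jund, Mup3, Sdhb, Serpind1, Tdo2 and Tpt1. On values as deposited the most extreme animal was another one for Tpt1, Serpind1 and Csf3r.

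WT 4 lay below the other 4 animals for the following genes. Tpt1 had 19639 in WT 4, against 21693 to 22049 in the others. Mup3 had 14262, against 21482 to 24097. Haus5, a subunit of the augmin complex of the spindle, had 924, against 3309 to 4807. Apob had 2315, against 5902 to 8275, and Tdo2 had 8439, against 13907 to 16947. Ugt2b34, a glucuronosyltransferase, had 1647, against 3152 to 4094. WT 4 lay above the others for C8g (20145, against 17067 to 17867) and for 2 respiratory chain genes, Cyc1 (14902, against 10699 to 11619) and Sdhb (11157, against 8772 to 9200).

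WT 5 lay above the others for Cd74 (5732, against 1402 to 2075), H2-Aa (5004, against 2062 to 2492) and C1qc (5182, against 2203 to 2695). It lay below them for Cpsf4 (-84, against 2533 to 4409) and for the anion exchanger gene Slc4a2 (2425, against 2711 to 2764).

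WT 1 lay below the others for Apoa1 (1337, against 8497 to 15311), for the transporter gene Abcc5 (999, against 2961 to 3997) and for Serpind1 (10513, against 10871 to 10953). WT 1 lay above the others for Jund, a subunit of the AP-1 factor (12070, against 9849 to 10242).

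WT 3 lay above the others for the plasma glutathione peroxidase gene Gpx3 (10103, against 7064 to 7434) and for the neutrophil receptor gene Csf3r (8183, against 6924 to 7210). It lay below them for the cell polarity gene Llgl1 (954, against 3498 to 5668). WT 2 lay below the others for H2-M3 (461, against 2825 to 3232) and above them for Hadhb (11297, against 1644 to 2248).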

How the results depend on the processing

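All 100 brightest genes were kept with values as deposited and with both other scalings, 87 when a gene stood at the mean of its probe sets, and 96 to 98 without single animals. Secreted plasma proteins among the 100 brightest numbered 32 to 36 under the alternatives. The count of bright genes was 2575 with the threshold at the 75th percentile of genes of other organs and 555 at the 95th, and 1391 to 1494 without single animals. The median SD was 0.165 on values as deposited, 0.118 without WT 3 and WT 4 together, and 0.127 to 0.149 without single animals, lowest without WT 4. Genes with an SD of at least 0.5 numbered 14 at the 95th percentile and 19 (without WT 4) to 39 (without WT 3) without single animals. The run comparison by limma called 4 probe sets higher and 1 lower when probe sets at the floor were kept (those of Grhpr, Fgf10, Pi4ka, Mcpt2 and Uba3, whose spread the floor removes), and 0 to 5 higher and 0 to 2 lower without single animals. Of 648 values of single genes and lists under these alternatives, 45 moved, by over 1 SD for mean intensities and by over 1.5 times for the rest. Mean intensities made up 300 of the 648 and 25 of the 45. For Ahsg and Alb the SD after quantile normalization is 0 by construction, so any change in their means was counted as moved. No paired analysis was possible because 1 group is described and no groups with shared numbers are compared. With 5 arrays and no repeat hybridisation, differences between animals and array error cannot be told apart.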

Other observations

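Several genes among the 100 brightest were on none of the lists. Csrp2 had normalized intensities of 22237, 22998, 23662, 20543 and 22049 in WT 1 to WT 5. Ptms, which encodes parathymosin, averaged 20156, the membrane protein gene Tmem205 averaged 19060 and the mitochondrial protein gene Chchd10 averaged 18739. Htt, the huntingtin gene, averaged 16559, and 2 genes known mainly from neurons were also among them: the ion channel gene Hcn2 averaged 15417 and the Purkinje cell gene Pcp2 averaged 14577. A second Hcn2 probe set averaged 87, below the floor. These genes were chosen after their values were seen.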
